A study of Mus musculus with 74 samples.

Results

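Zfp617 is a mouse KRAB zinc finger protein (KRAB-ZFP), and its binding sites were taken as the 764 rows that carry its name in a deposited table of 53255 ChIP-seq peaks, of which 53011 belong to the 67 KRAB-ZFPs with a matching label. The sample came from F9 EC cells, a mouse embryonal carcinoma line, which overexpressed Zfp617 with an N-3XFLAG tag from a stably integrated Sleeping Beauty vector in pooled drug-resistant cells, and chromatin was precipitated with the FLAG antibody F1804. It was compared with the 17 other FLAG-tagged KRAB-ZFPs in F9 cells, which hold 19964 peaks, and on single points with Zfp599, an HA-tagged KRAB-ZFP in the same line with 697 peaks. All of these cells carry an overexpressed tagged protein, the F9 input and FLAG control ChIP entered only through the authors' peak calling, and each KRAB-ZFP was assayed once, so that no value below has a replicate error.

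KRAB-ZFPs bind DNA through an array of C2H2 zinc fingers, each of which contacts a few neighbouring bases. Their KRAB domain recruits KAP1 (Trim28), which brings the H3K9 methyltransferase SETDB1 and HP1 proteins and silences the bound DNA. Many of their targets are retrotransposons, including long terminal repeats (LTRs) of the MaLR class, to which the ORR1 elements belong. The longest annotated Zfp617 protein had 559 residues and 14 C2H2 fingers, counted with the pattern of 2 cysteines and 2 histidines at their usual spacing. Zfp882 also had 14 fingers, and Zfp599, Zfp961 and Zfp709 had 10, 11 and 19.

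To show what Zfp617 sat on, the 42-base sequence that the study placed in its Zfp617 reporter plasmid and named after the ORR1A2 repeat was searched in every peak window. This sequence was picked by the study with the same ChIP data in hand, so that its presence in the peaks is not independent evidence of its choice. Repeat annotation was not used here, and the name of the repeat is the study's. The stretches printed here were chosen because they carry the result, and run from base 4 to base 31 of the reporter sequence, in mm9 and 5′ to 3′ on the strand of the match. Capitals mark 16 core bases, whose choice is explained with the comparison of copies inside and outside peaks. The first line is the reporter sequence, the next 5 are matches in 5 of the 6 peaks with the highest fold enrichment among those that held it, the line of Yy1 is the strongest peak with an exact copy of all 42 bases, and the lines of Ctnnal1 and Zfp809 are from peaks next to transcript starts. Each match is named after the nearest protein-coding transcript start.
reporter sequence: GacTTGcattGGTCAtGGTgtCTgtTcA
AI427809, chr4:53355215-53355242, forward strand: GagTTGctttGGTCAcGGTatCTgtTcA
Nid2, chr14:20562363-20562390, forward strand: GagTTGctttGGTCAtGGTgtCTttTcA
Rbm28, chr6:29049301-29049328, forward strand: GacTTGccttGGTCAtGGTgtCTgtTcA
Syde2, chr3:145636960-145636987, forward strand: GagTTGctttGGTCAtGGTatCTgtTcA
Dnajb12, chr10:59333893-59333920, reverse strand: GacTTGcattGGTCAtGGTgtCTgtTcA
Yy1, chr12:110020842-110020869, forward strand: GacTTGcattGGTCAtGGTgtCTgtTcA
Ctnnal1, chr4:56858362-56858389, forward strand: GagTTGccttGGTCAtGGTgtCTctTcC
Zfp809, chr9:22040325-22040352, forward strand: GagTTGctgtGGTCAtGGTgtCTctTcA

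In these 8 genomic matches the core bases were the same as in the reporter sequence, except for 1 base at the 3′ end of the Ctnnal1 match. The stretches printed are limited to the span of the core. Over all 42 bases the mismatches were 0 at Yy1, 1 at Dnajb12, 2 at Rbm28 and 6 at AI427809. They were 7 at Nid2 and Zfp809 and 9 at Syde2 and Ctnnal1. Matches close to the reporter sequence stood under both high and lower peaks. The peak near Rbm28, with 2 mismatches over the 42 bases, had a fold enrichment of 151, and the exact copy near Yy1 had a fold enrichment of 32.5.

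Of the 764 Zfp617 windows, each 200 bp around a summit, 672 held the reporter sequence with at most 10 mismatches, which is 88.0% (95% Wilson interval 85.5 to 90.1, counting error only). Exact copies were found in 8 windows, 1 to 4 mismatches in 383 and 5 to 10 in 281, and the median over the windows that held it was 4. The same search 1 kb before the summits found it in 3 windows, and 1 kb after them in 0. Among the other FLAG samples 22 of 19964 windows held it, or 0.110%, and 11 of the 17 samples had none, which at 3 counts allows from 0.136% to 5.77% by their numbers of peaks. The highest share among them was 1.56%, for Gm30910, which is 1 of its 64 peaks. The share of Zfp617 was thus 87.8 percentage points above the mean of the others, the highest of 18 samples, and the groups did not overlap. An exact two-sided permutation test of 1 sample against 17 gave p = 0.0556, the smallest that this design allows, and an adjusted p of 0.556 over the 10 measures compared, so that the test could not pass 0.05. Against all 66 other KRAB-ZFPs Zfp617 was again highest, with an exact permutation p of 0.0149, again the smallest possible, and an adjusted p of 0.149. Since the study picked the sequence with the same ChIP data in hand, a high rank of Zfp617 was built into both tests. Neither is evidence for it.

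**Figure D1:**
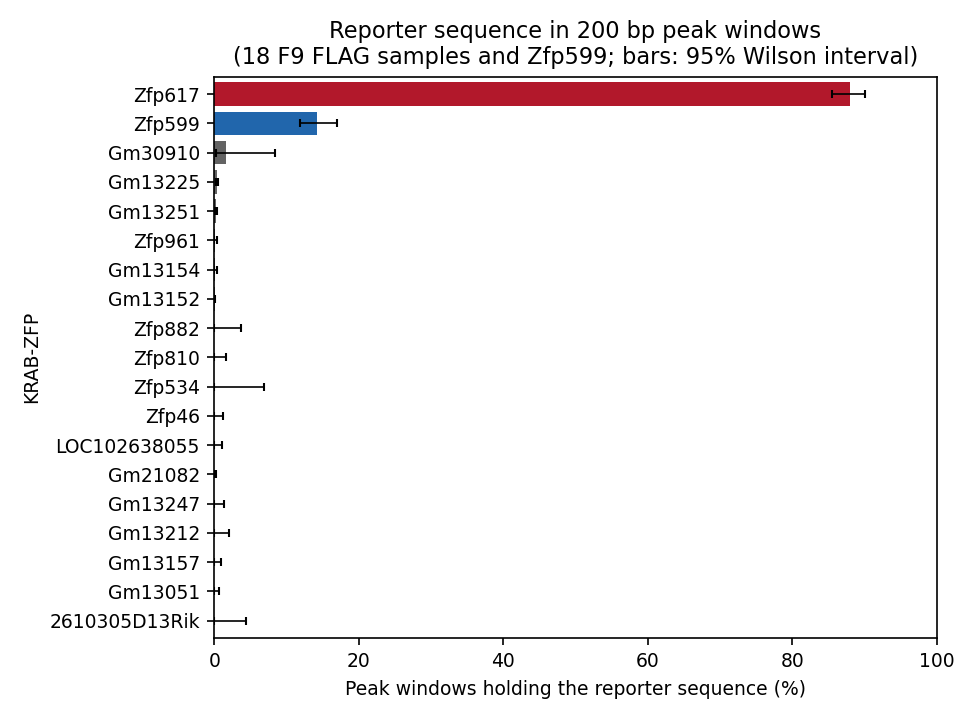
Share of 200 bp peak windows that held the 42-base reporter sequence with at most 10 mismatches (x axis, percent) in the 18 FLAG-tagged F9 samples and in Zfp599 (y axis), with 95% Wilson intervals as bars. Zfp617 stands at 88.0%, Zfp599 at 14.2% and the other FLAG samples at 1.56% or below.

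Only a reporter sequence lying whole inside the 200 bp window was counted, which caps the distances given here. Within this limit the sequence lay close to the summits. Its middle was a median of 11 bp to the 5′ side of the summit when read on its own strand, with quartiles of 33 bp to the 5′ side and 10 bp to the 3′ side, and it was within 50 bp of the summit in 570 of 672 peaks, or 84.8%. The sequence was on the forward strand in 354 and on the reverse strand in 318. Short sequences that recur in the windows were also searched without the reporter. The 10-mer found in most windows on the odd-numbered chromosomes was TGGTCATGGT, in 73.8% of 400 windows. On the other chromosomes it was in 76.4% of 364 windows, and in the other FLAG samples in 0.145% of windows. The next 4 were TTGGTCATGG, GGTCATGGTG, GTCATGGTGT and TCATGGTGTC, which overlap it, and all 5 are part of the reporter sequence. The reporter sequence was already found in 672 of these 764 windows, so that pieces of it were likely to lead this search. The odd-numbered and the other chromosomes come from the same library. The search is therefore not independent evidence for the reporter sequence.

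**Figure D2:**
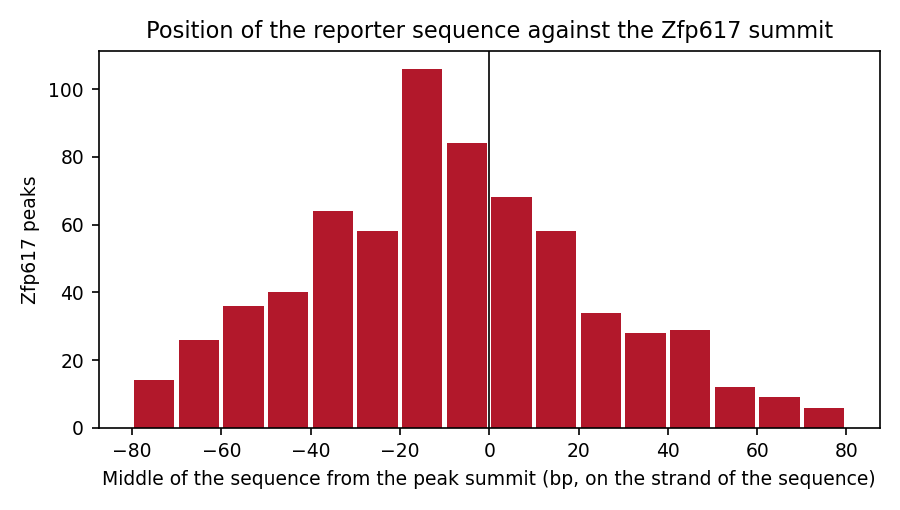
Distance from the Zfp617 peak summit to the middle of the reporter sequence (x axis, bp in bins of 10 bp, negative to the 5′ side on the strand of the sequence) against the number of peaks (y axis), for the 672 windows that held it. Most peaks lie within 50 bp of 0, with the median at −11 bp. Only sequences lying whole inside the 200 bp window are counted, which caps the distance.

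Peaks were not higher where the window was closer to the reporter sequence. Windows with 0 to 3 mismatches had a median fold enrichment of 26.96 (quartiles 23.1 and 34.2, 272 peaks), those with 4 to 6 had 30.8 (24.7 and 43.0, 258 peaks) and those with 7 to 10 had 33.1 (25.5 and 45.3, 142 peaks). The fold enrichment is the authors' ratio of tags to local background, and only peaks above 20 were kept. Across the 672 windows the fold and the number of mismatches had a Spearman correlation of 0.23, and across the 395 of them made of single-copy sequence the correlation was 0.11. These windows share 1 library and its background. The closest copies were also the most repeated. The median number of genome occurrences of a window's 24-mers was 4 at 0 to 3 mismatches and 1 in the other classes. Reads with several equally good positions were placed at 1 of them, and the part of this in the heights was not tested. Windows with 10 or more occurrences had a median fold of 25.1 and 25 tags, against 30.8 and 34 tags in single-copy windows.

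The mm9 assembly held 37988 copies of the reporter sequence at up to 10 mismatches, and 674 of them lay inside a Zfp617 window, or 1.77% (1.65 to 1.91). Among the 24627 copies in single-copy sequence the share was 1.15% (1.02 to 1.29). Of the 55 exact copies 8 were inside, or 14.5% (7.56 to 26.2). At 1 mismatch the share was 2.72%, at 2 it was 3.499%, at 3 it was 3.55% and at 4 it was 3.43%, with overlapping intervals. From there it fell to 2.07% at 5 mismatches, 1.14% at 7 and 0.413% at 10 (0.267 to 0.637). Among copies with 0 to 4 mismatches the share was 3.499% in single-copy sequence (2.91 to 4.20) and 3.36% in copies with 10 or more occurrences (2.87 to 3.92), and the intervals overlap. Among copies with 5 to 10 mismatches it was 0.797% in single-copy sequence (0.687 to 0.925) and 1.07% over all of them (0.9497 to 1.20). A copy outside a window is not shown to be unbound, since the depth of the library is unknown and the thresholds were strict.

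**Figure D3:**
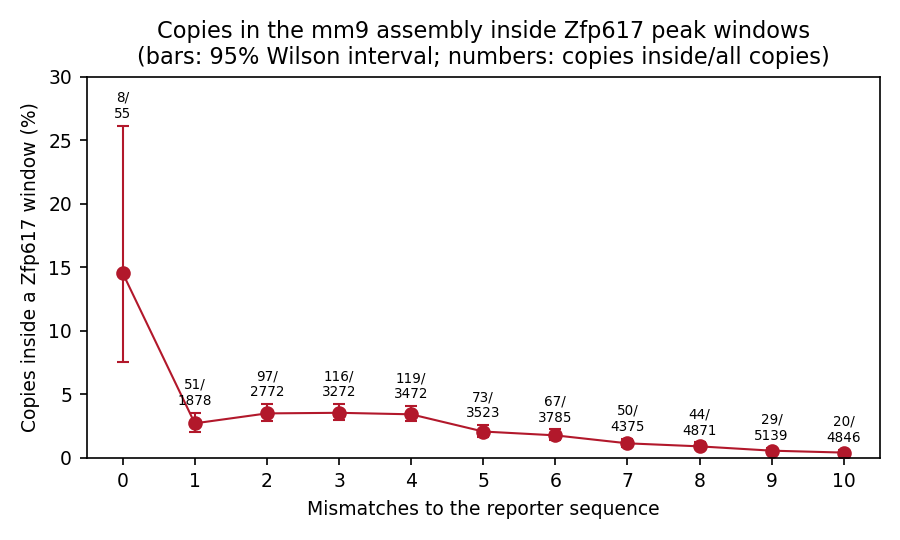
Share of genome copies of the reporter sequence that lay inside a Zfp617 window (y axis, percent) by mismatches to it (x axis), with 95% Wilson intervals as bars and the numbers of copies printed above. The share is 14.5% for the 55 exact copies, near 3% from 1 to 4 mismatches and 0.413% at 10.

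Copies inside windows were more uniform than those outside at particular bases, counted from 1 at the 5′ end. Of the 42 bases, 14 were held by at least 98% of the 674 copies inside windows, and none by 98% of the 37314 copies outside, where the highest value was 96.8%. Bases 9 and 15 were kept in 100% of the copies inside, against 89.5% and 91.5% outside. Base 4 was kept in 98.8% inside against 86.0% outside, and base 20 in 99.4% against 89.5%. Bases that are not part of the core also differed. The substitution G27C was found in 21.1% of copies inside and 44.3% outside, and G37A in 18.1% and 46.9%. Other substitutions were more frequent inside windows, with T1A at 24.9% against 7.07%, G23A at 25.2% against 10.1% and T19C at 11.4% against 4.09%. C6G and A11C were common in both, at 62.6% and 71.1% inside, so that the reporter sequence carries the rarer base there.

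**Figure D4:**
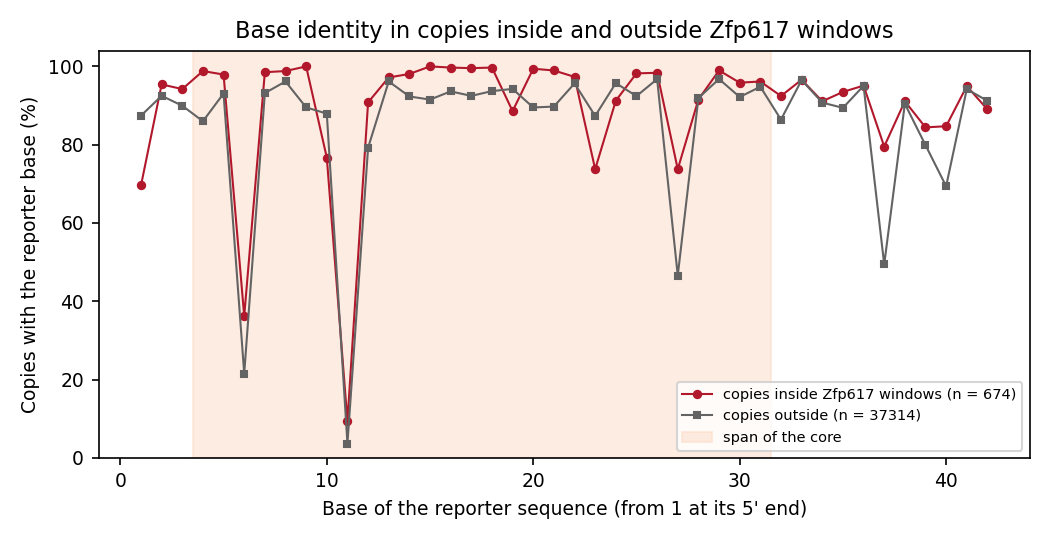
Share of copies with the reporter's base (y axis, percent) at each of its 42 bases (x axis) for the 674 copies inside Zfp617 windows (red circles) and the 37314 outside (grey squares), with the span of the core shaded. The copies inside are at or near 100% across most of the core, and the largest gaps between the lines are at bases 27 and 37, where copies outside fall below 50%.

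The core was defined as the bases held by at least 97% of the 354 copies inside windows on odd-numbered chromosomes, after these values had been seen, and was described on the remaining chromosomes. It reads
core: GNNTTGNNNNGGTCANGGTNNCTNNTNA
and has 16 fixed bases over a span of 28. On the even-numbered chromosomes and X, the core was intact in 267 of 320 copies inside windows, or 83.4% (79.0 to 87.1), and in 33.3% of the 19042 copies outside (32.6 to 33.9). Read the other way, 4.05% of the 6599 copies with an intact core lay in a window (3.597 to 4.55). This was 0.733% of 6409 copies with 1 core base changed (0.552 to 0.974), 0.148% of 4046 with 2 changed, and 0 of 2308 with 3 or more changed, which the Wilson interval limits to 0.166%. Among copies with an intact core the share was 5.24% where bases 27 and 37 were both those of the reporter, and 2.13% where neither was. Not every core base set the copies inside apart. Over all chromosomes, core base 31 was held by 96.1% of copies inside, below the 97% limit, and by 94.8% outside. Core base 26 was held by 98.4% and 96.8%. Bases 5 and 13, which are not in the core, were held by 97.9% and 97.2% of copies inside.

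Of the 92 Zfp617 windows without the reporter sequence, 42 held the core with at most 2 changed bases, and 14 of these held it intact. The same windows moved by 1 kb to either side held it in 0 of 92, which allows up to 4.01% by the Wilson interval. In the other FLAG samples 0.145% of windows held it at this limit. In Zfp599 it was in 145 of 697 windows, or 20.8% (17.95 to 23.97), and intact in 38, or 5.45% (3.998 to 7.39). The 4 such windows with the highest fold enrichment, all in single-copy sequence, carried these stretches, again named after the nearest protein-coding transcript start.
Kit, chr5:75767632-75767659, reverse strand: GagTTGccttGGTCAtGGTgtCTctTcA
Ube4b, chr4:148806151-148806178, reverse strand: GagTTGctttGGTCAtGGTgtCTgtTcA
Wdr59, chr8:114042211-114042238, forward strand: GagTTGtcatGGTCAtGGTctCTtcAcA
St6gal1, chr16:23188518-23188545, reverse strand: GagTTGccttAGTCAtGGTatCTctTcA

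The first lies 203344 bp from the transcript start of Kit, the receptor tyrosine kinase of germ and blood stem cells, and the second 5221 bp from that of Ube4b, a ubiquitin chain elongation factor. Both kept all 16 core bases, and the matches near Wdr59 and St6gal1 each had 1 core base changed, which stands in capitals in the line. With these windows, 714 of the 764 Zfp617 peaks, or 93.5%, held the reporter sequence or the core. The remaining 50 peaks were not weak. Their median fold enrichment was 43.8 (quartiles 29.3 and 59.3), against 28.9 for the 551 peaks with the reporter sequence and an intact core (23.2 and 41.0). The highest of the 50 was in an intron of Gli2, a transcription factor of Hedgehog signalling, at chr1:120757169-120757368, with 123 tags and a fold enrichment of 109. It was followed by peaks 19497 bp from Ly75, an endocytic receptor of dendritic cells, with a fold of 88.8, and 13405 bp from Fgfr4, a fibroblast growth factor receptor, with a fold of 86.2. Another, nearest to Plekhb1 with a fold of 79.1, had its best match to the reporter sequence at 13 mismatches. The search allowed no gaps, so that a related sequence with an insertion or deletion could be among the 50. Of these 50 peaks, 14 overlapped a peak of another KRAB-ZFP, against 25 of the 672 with the reporter sequence.

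**Figure D5:**
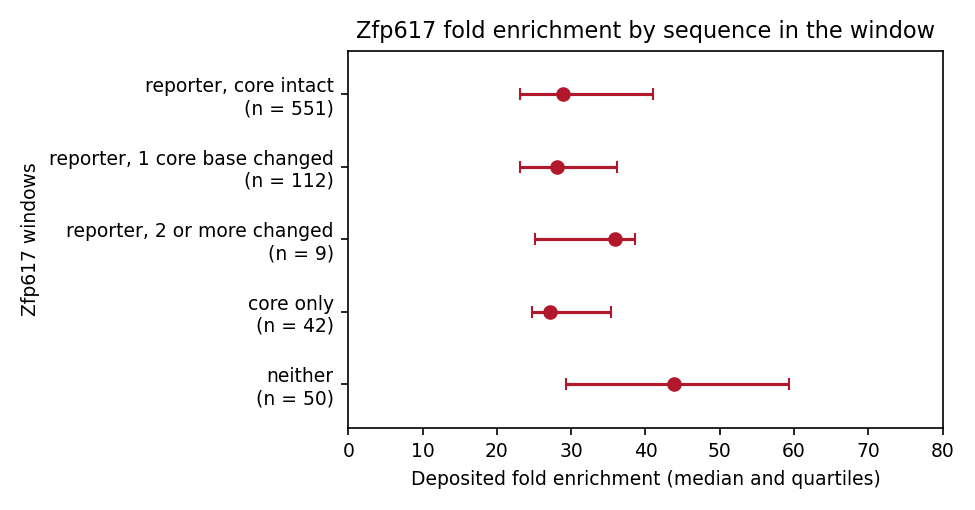
Deposited fold enrichment (x axis, ratio to local background, points are medians and bars the quartiles) of Zfp617 peaks grouped by the sequence in the window (y axis, with the number of peaks). The medians lie between 27.2 and 35.9 for the 4 groups with the reporter sequence or the core and at 43.8 for the 50 peaks with neither.

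The 10 peaks with the highest fold enrichment had folds of 109.9 to 153. All 10 held the reporter sequence, with 1 to 10 mismatches, where 88.0% of all Zfp617 peaks did. None was in an exon. The highest, at chr4:53355146-53355345 with 206 tags, lay 79827 bp from the nearest protein-coding transcript start, that of AI427809. The second, at chr14:20562307-20562506 with 167 tags and a fold of 152, was 8072 bp from Nid2, a nidogen of basement membranes. The third, at chr6:29049256-29049455 with 135 tags, was 31946 bp from Rbm28, a nucleolar RNA-binding protein. The intronic ones were 2. The first was in Fbln1, the extracellular matrix protein fibulin, at chr15:85046616-85046815 with 182 tags and a fold of 125. The second was in Tenc1, a tensin of focal adhesions, at chr15:101940220-101940419 with 115 tags and a fold of 112. The others were intergenic and included peaks nearest to Syde2, Dnajb12, Pkdcc and Gyg, with folds of 136, 131, 121 and 109.9. Dnajb12 encodes a co-chaperone of the endoplasmic reticulum, Pkdcc a secreted kinase and Gyg glycogenin.

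Over all 764 peaks, the median fold enrichment was 28.9, with values between 20.1 and 153. The tags per peak lay between 13 and 259, and their median was 32. The called width had a median of 393 bp with quartiles of 337 and 449. The summits were intergenic in 467 peaks (61.1%) and intronic in 290 (37.96%), with 3 in coding exons, 1 in a UTR and 3 in other exons. Only 32 summits, or 4.19%, lay within 1 kb of a transcript start, where the other FLAG samples ranged from 2.49% to 50.05% with a median of 12.7%. The median GC content of the windows was 43.0%, equal to the lowest of the other samples, whose highest was 64.0%. Windows of 10 or more genome occurrences made up 18.3%, within the range of 1.00% to 91.9% of the others. Exact two-sided permutation tests against the 17 other FLAG samples gave p = 0.389 for the share near transcript starts, 0.333 for GC content, 0.667 for intergenic summits and 0.889 for repeated windows. The remaining measures, which were peak number, width, fold, clustering and shared loci, gave exact permutation p-values from 0.556 to 0.889, and the adjusted p was 0.889 for each of these 9 measures. Of the 17 samples, 6 were called at an enrichment threshold of 10 in place of 20, and 2 of these also at a looser p threshold. Against the 11 with the thresholds of Zfp617, the median fold of Zfp617 was 7.79 below their mean of 36.7, in place of 1.02 below a mean of 29.96 over all 17. The log10 number of peaks was then 0.0138 above their mean, in place of 0.208, and exact permutation p-values over the 10 measures were 0.0833 or above, the smallest that 11 samples allow. A p at these values does not show that Zfp617 was alike to the others.

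Copies of the reporter sequence near genes lay in Zfp617 windows more often than distant ones. The share was 3.01% of 9940 copies within 10 kb of a transcript start (2.69 to 3.36), 1.34% of 28048 farther away (1.21 to 1.48) and 0.414% of 7004 over 100 kb away (0.288 to 0.594). Among copies with 0 to 4 mismatches these shares were 5.47%, 2.65% and 0.935%. The share also moved with the GC content of the surrounding 2 kb, from 0.409% of 4889 copies under 38% GC to 2.81% of 13322 copies at 44% or more. Distance and GC content were not separated, and copies are not replicates, so that no test was made. By chromosome the share was highest on 19, at 2.69% of 744 copies (1.75 to 4.12). It was 0.832% of 2164 copies on X (0.527 to 1.31) and 0.892% of 1681 copies on 14 (0.542 to 1.47), with overlapping intervals. On Y it was 0 of 47 copies, where the Wilson interval reaches 7.56%. Within protein-coding genes the sequence was on the strand of the host gene in 73 of 241 peaks, or 30.3% (24.8 to 36.4), and in 32.8% of 10769 copies outside peaks (31.9 to 33.7), and the intervals overlap.

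At 20 peaks the summit was within 1 kb of a protein-coding transcript start. The reporter sequence was in 17 of these, near the 88.0% of all Zfp617 peaks. The highest was in the first part of Ctnnal1, the actin-binding protein alpha-catulin, 523 bp from the start, with 152 tags and a fold of 70.1. Next were Cops6, a subunit of the COP9 signalosome, with a fold of 55.1, Nup160, a nuclear pore subunit, with 49.6, and Cap2, a regulator of actin, with 42.3. The fifth was an intron of Zfp809, itself a KRAB-ZFP known to silence murine leukemia virus and related elements, at chr9:22040308-22040507, 944 bp from the start, with 116 tags and a fold of 40.3. The match in this window had 7 mismatches over 42 bases and all 16 core bases. The other 10 of the 15 with the highest fold were Cpeb3, Ntpcr, Zfp106, Pola1, Wdr44, Sod2, D3Ertd254e, Ccdc40, Uhrf2 and Supt3h, from 35.98 down to 25.1. Pola1 encodes the catalytic subunit of DNA polymerase alpha, Sod2 the mitochondrial superoxide dismutase and Uhrf2 a relative of the DNA methylation cofactor Uhrf1. The Wdr44 summit lay 4 bp from an annotated start, but its window had a median of 365 genome occurrences, and that of Uhrf2 had 75. Reads with several equally good positions were placed at 1 of them, so that the place of these 2 peaks is uncertain.

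A total of 295 genes had a Zfp617 summit in their body. The gene with most was Gm20388, with 5, an annotated locus on chromosome 8 that spans many other genes. Another 13 genes had 2 each, led by Atp9a, an endosomal flippase, with folds up to 102, and Acacb, a mitochondrial acetyl-CoA carboxylase, up to 81.8, then X99384 and Zfp617. Peaks rarely stood together, with 20 of 764 (2.62%) within 10 kb of another. They formed 10 neighbouring pairs, of which 8 held the reporter sequence at both peaks, where 88.0% of all 764 peaks held it. In 6 pairs the summits were 2074 to 2364 bp apart, all with the sequence at both and 4 with it on the same strand, as at Mllt10, a cofactor of the histone methyltransferase DOT1L, with folds of 43.0 and 26.4 at 2181 bp.

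Of the gene lists, which were chosen with earlier results of these data known, none of the 17 annotated pluripotency genes and none of the 18 annotated imprinted genes had a Zfp617 summit in the body or within 10 kb. Among 22 genes of KAP1 silencing 1 had a summit, in an intron of Atrx, a chromatin remodeller that works with Daxx on histone H3.3, with a median of 9 genome occurrences. Among 397 zinc finger genes 18 had one, or 4.53%, where 545 of all 22380 protein-coding genes did, or 2.44%. Apart from Zfp617 and Zfp809 these included Zfp106, Zfp53, Zfp644, Zfp68 and Zfp704 with a summit in the gene body. The 18 also count Zfp212 and Zfp282 through the same peak, and Zfp617 through the peaks on its own coding exons. The difference between the shares was not tested.

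Both peaks in coding exons of the Zfp617 gene itself (chr8:74432534-74458528, forward strand) lacked the reporter sequence and the core. One, at chr8:74457115-74457314, was the widest of all 764 peaks, at 1607 bp, and had the most tags, 259, with a fold of 52.1. The other, at chr8:74452091-74452290, had 17 tags and a fold of 25.1. Among the FLAG-tagged KRAB-ZFPs with an annotated coding sequence, 4 of 15 had a peak on their own coding exons, the others being Zfp46, Zfp882 and Zfp961, each with 2. Over all KRAB-ZFPs with an annotated coding sequence it was 5 of 62. Outside the FLAG samples only the HA-tagged Zkscan17 had such peaks, with 6. The Zfp617 cells also carried the tagged open reading frame in the integrated vector, and its part in both Zfp617 peaks was not tested. Without both peaks the reporter sequence was in 88.2% of windows.

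Few Zfp617 loci were shared. Windows that overlapped a window of any other KRAB-ZFP by at least 25% numbered 42 of 764 (5.50%), and 25 of these (3.27% of all) overlapped another FLAG sample, where the other FLAG samples had a median of 6.81%. Zfp534 shared most, with 11 loci, or 1.44% of the Zfp617 peaks and 21.2% of its own 52, and none of these held the reporter sequence. Gm13251 shared 7, Gm13225 and Zfp810 shared 6 each and Zfp599 shared 5. The 6 shared with Zfp810 also lacked the reporter sequence, while all 5 shared with Zfp599 held it.

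Zfp599 was the one KRAB-ZFP outside the FLAG samples with over 3 windows holding the reporter sequence, and its summits lay at another distance from it. It had the sequence in 99 of 697 windows, or 14.2% (11.8 to 16.99), with a median of 8 mismatches. Its summits lay a median of 66 bp to the 5′ side of the middle of the sequence, with quartiles of 73 and 57 bp. Only a sequence lying whole inside the 200 bp window was counted. Zfp599 summits farther from it are therefore left out of the 99, of these distances and of the copies compared below. Within 1 kb of Zfp617 peaks that held the sequence, 5 Zfp599 summits lay upstream of it, at −93 to −43 bp, and 2 downstream. The Zfp617 core was intact in 27 of the 99 copies in Zfp599 windows, or 27.3% (19.5 to 36.8), in 81.9% of the 674 copies in Zfp617 windows (78.8 to 84.6) and in 33.5% of the 37218 copies in neither (33.0 to 33.9). The core was chosen on 354 of these 674 copies, so that a high share in Zfp617 windows was built in. On the chromosomes not used for the choice the share in Zfp617 windows was 83.4% of 320 copies. Copies with 0 to 4 mismatches made up 5.05% of those in Zfp599 windows and 58.0% of those in Zfp617 windows. Of the copies, 3 lay in windows of both proteins. Zfp599 carried an HA tag and was called against another control ChIP, and with 1 sample of each protein the difference has no test.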

How the data were processed

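The authors sequenced FLAG ChIP DNA as single reads and, per the labels, mapped the Zfp617 reads to mm9 with Bowtie (-5 3 --best), 1 position per read. They called peaks with MACS 1.4.2 against F9 input and a FLAG control ChIP (p < 1e-10, enrichment > 20), without pooling. The deposited table gives, for each 200 bp window, raw tag counts, a score (10 times the −log10 p-value), the fold enrichment as a ratio and the false discovery rate in percent. Starts were read as 0-based, so positions printed from 1 could be off by 1 base. Library depth is unknown.

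From these, windows were read from NCBIM37 with gencode vM1 genes (Python 3, tested on simulated data). The reporter sequence came from the study's oligo list and was searched on both strands without gaps. Zfp617 was compared with the 17 other F9 FLAG samples by exact two-sided permutation over samples for 10 measures with Benjamini-Hochberg adjustment. Site-level shares carry 95% Wilson intervals for counting error and no test. Genes named were those of the 10 highest peaks, the 15 strongest transcript-start peaks, the 5 genes with most summits, and members of the gene lists. The members, lists and core were chosen with earlier results of these data known. A further name, with 244 peaks, has no matching label and was not used here. One of the 10 highest peaks is not reported here by name.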

Additional observations from a re-analysis of the deposited data

Results flagged for a closer look

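One result outside the FLAG samples was singled out because it exceeded a limit of 3 windows in data that the comparison did not use. The Zfp617 reporter sequence was in 99 windows of Zfp599, an HA-tagged sample.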

How the results depend on the processing

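For the 10 measures and 2 descriptions, 56 alternatives were computed, of which 51 kept the direction and the side of the threshold or stayed within the limits set for counts and intervals. No test passed an adjusted p of 0.05 under any of them, and with 1 sample against 17 none could. The share of windows holding the reporter sequence stayed highest for Zfp617 throughout. It was 52.5% in 100 bp windows, which cut off sequences away from the summit, 90.7% in 400 bp windows, 69.4% at up to 6 mismatches and 91.8% at up to 14. In single-copy windows it was 85.7%, an alternative chosen after seeing the data, as was leaving out the peaks in the Zfp617 gene. The difference of Zfp617 from the mean of the others changed sign 4 times. It was −1.35 percentage points for intergenic summits at an enrichment over 30, 4.32 bp for width and 5.85 for median fold against all other KRAB-ZFPs, and 7.74 percentage points for repeated windows at a minimum of 2 occurrences. The cause was not tested. The share of copies inside windows moved to 1.15% in single-copy sequence, and a 50% overlap gave 33 shared loci. No paired analysis was possible because each KRAB-ZFP had 1 sample.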
